A study of Mus musculus with 6 samples.

Results

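Per1, Per2, Per3, Cry1, Cry2, Clock, Nr1d1, Nr1d2, Dbp and Tef are the circadian clock and clock output genes described here. They were taken by symbol from a table of 28802 mouse genes, in which each of the 10 matched 1 row, and all 10 passed the filter on low counts. With the metformin scaffold, transcripts of Tef, a clock-driven output factor, were lower (0.84-fold), and the other 9 did not pass the test. The fall of Tef was small and its call was lost whenever any single library was left out. Beyond these genes, the clock repressor gene Bhlhe40 was 2.02-fold higher and the glucocorticoid-induced gene Tsc22d3 was 0.76-fold of control. Both come from lists chosen with earlier results of these data known. The other 11 genes of the glucocorticoid list did not pass, and neither did Bhlhe41, the paralogue of Bhlhe40.

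Messenger RNA labelled as mouse cranial bone was sequenced in 6 libraries, 3 of a control group at 0 µM and 3 of a group with metformin, a biguanide, at 500 µM in a scaffold of calcium sulfate hemihydrate and nano-hydroxyapatite (Met/alpha-CSH/nHA). The labels describe a skull defect of 5 mm and give neither strain, age, sex nor hour of collection. They do not say what the control received, whether RNA came from tissue or culture, or whether the replicates were separate animals, so the spread behind each p-value is that between these libraries and may be technical only. Total estimated counts were 63174927 to 70955139 per library, and about 4 counts stand for 1 read pair. All 8 osteoblast markers lay at a mean of at least 1 FPKM (fragments scaled for gene length and library size), while none of the 3 leukocyte, 3 erythroid and 4 endothelial markers analysed here reached it.

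In mammals the clock is a feedback loop of transcription. CLOCK and its partner BMAL1, encoded by Arntl, bind E-box elements and switch on the Per and Cry genes, whose proteins return to the nucleus and block CLOCK and BMAL1. A second loop runs through the nuclear receptors REV-ERBα and REV-ERBβ (Nr1d1 and Nr1d2), which repress Arntl at ROR elements, and the bZIP factors DBP, TEF and HLF carry the rhythm to output genes through D-box elements. Mice that lack Per or Cry genes are known for high bone mass, and metformin is known to act in part through AMPK, a kinase that phosphorylates CRY1 and so leads to its degradation.

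Shown are the promoters of the 3 genes whose groups did not overlap in CPM (Tef, Per3 and Cry1), and that of Arntl. They carry elements through which the loop is wired, but so do windows of Per1, Cry2 and Nr1d1, which are not shown. Of all genes tested, 24.0% did not overlap in CPM. Sequences are RefSeq promoter windows of 300 bases (250 before and 50 after the start, GRCm38.p6), written 5′ to 3′ on the strand of the gene. Capitals mark the E-box CACGTG, the E-prime box CACGTT, the D-box TTATGTAA or TTACGTAA and the ROR element TAGGTCA on either strand, and no matches overlapped. The first base of a match is counted from the start, with negative numbers upstream.
Tef, first start, chr15:81802423-81802722, plus strand: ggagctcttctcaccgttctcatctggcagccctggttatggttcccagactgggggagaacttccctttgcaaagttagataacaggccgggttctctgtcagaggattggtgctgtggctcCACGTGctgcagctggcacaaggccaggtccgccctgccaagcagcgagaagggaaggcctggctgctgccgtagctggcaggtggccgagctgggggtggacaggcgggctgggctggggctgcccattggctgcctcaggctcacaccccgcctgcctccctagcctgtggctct
Tef, second start, chr15:81811164-81811463, plus strand: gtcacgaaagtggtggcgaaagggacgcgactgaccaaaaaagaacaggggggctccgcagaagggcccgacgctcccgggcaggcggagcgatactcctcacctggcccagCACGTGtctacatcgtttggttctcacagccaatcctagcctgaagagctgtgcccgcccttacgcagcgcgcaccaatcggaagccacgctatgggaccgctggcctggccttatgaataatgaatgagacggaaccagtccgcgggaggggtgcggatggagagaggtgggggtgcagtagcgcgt
Cry1, chr10:85185005-85185304, minus strand: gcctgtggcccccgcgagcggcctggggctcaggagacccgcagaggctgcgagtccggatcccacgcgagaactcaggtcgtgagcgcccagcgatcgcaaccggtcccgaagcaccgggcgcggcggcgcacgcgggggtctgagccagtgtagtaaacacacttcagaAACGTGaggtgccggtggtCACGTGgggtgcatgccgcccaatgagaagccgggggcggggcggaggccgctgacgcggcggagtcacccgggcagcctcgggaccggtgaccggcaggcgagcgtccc
Per3, chr4:151044616-151044915, minus strand: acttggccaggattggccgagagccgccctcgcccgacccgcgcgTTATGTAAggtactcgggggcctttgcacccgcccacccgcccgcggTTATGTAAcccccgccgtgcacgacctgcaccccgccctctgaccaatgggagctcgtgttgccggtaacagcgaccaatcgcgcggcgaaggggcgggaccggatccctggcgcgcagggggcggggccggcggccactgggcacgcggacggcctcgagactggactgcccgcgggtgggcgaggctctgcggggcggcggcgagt
Arntl, second start, chr7:113207261-113207560, plus strand: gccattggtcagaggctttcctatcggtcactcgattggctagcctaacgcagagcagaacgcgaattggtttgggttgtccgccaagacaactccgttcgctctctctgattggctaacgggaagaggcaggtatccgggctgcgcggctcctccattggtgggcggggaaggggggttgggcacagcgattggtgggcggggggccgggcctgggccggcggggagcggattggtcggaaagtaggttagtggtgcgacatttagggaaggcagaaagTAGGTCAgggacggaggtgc

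Both Tef windows hold 1 E-box, at -127 and at -138. The Cry1 window holds an E-box at -60 and an E-prime box at -79, and the Per3 window holds D-boxes at -205 and -158. The second Arntl window holds a ROR element at 31, and the first, not shown, holds no match. Neither does the window of Nr1d2, whose groups did not overlap in FPKM but did in CPM. Windows were found for 9 of the 10 genes (13 windows in all), and Per2, which had none, was not searched. An E-box lay in a window of 3 of the 9 genes (Per1, Cry1 and Tef) and an E-prime box in 3 (Cry1, Cry2 and Nr1d1). A D-box lay in a window of 1 gene (Per3). Counted by window, 4 of the 13 held the E-box, 3 the E-prime box, 1 a D-box and 0 the ROR element. Over all 32851 windows of this length in the table, 7.15% held the E-box, 4.68% the E-prime box, 1.06% a D-box and 2.61% the ROR element. The cAMP response element TGACGTCA lay in none of the 13 windows of the 9 genes searched, against 1.79% of all windows. A match is a run of letters and not a shown binding site.

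Levels between genes are compared in FPKM, which is per length. Per1, a period gene that is induced quickly by stimuli, was highest at a mean of 17.8 FPKM over the 6 libraries (16.4 to 18.8). It was followed by Tef at 11.4 FPKM (9.64 to 13.5) and the repressor gene Cry1 at 9.44 FPKM (9.10 to 9.88), whose ranges overlapped. Clock, at 5.82 FPKM, stood apart from both its neighbours in the order. Per2 and Nr1d2 had mean levels of 3.47 FPKM and 2.999 FPKM, and their ranges overlapped. Cry2 at 2.24 FPKM, Nr1d1 at 1.82 FPKM, Per3 at 0.92 FPKM and Dbp at 0.33 FPKM then followed in order, with no overlap between neighbours. The depth behind these values ran from 7173 to 8236 counts per library for Per1 down to 48 to 137 counts, or about 12 to 34.2 read pairs, for Dbp.

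**Figure D1:**
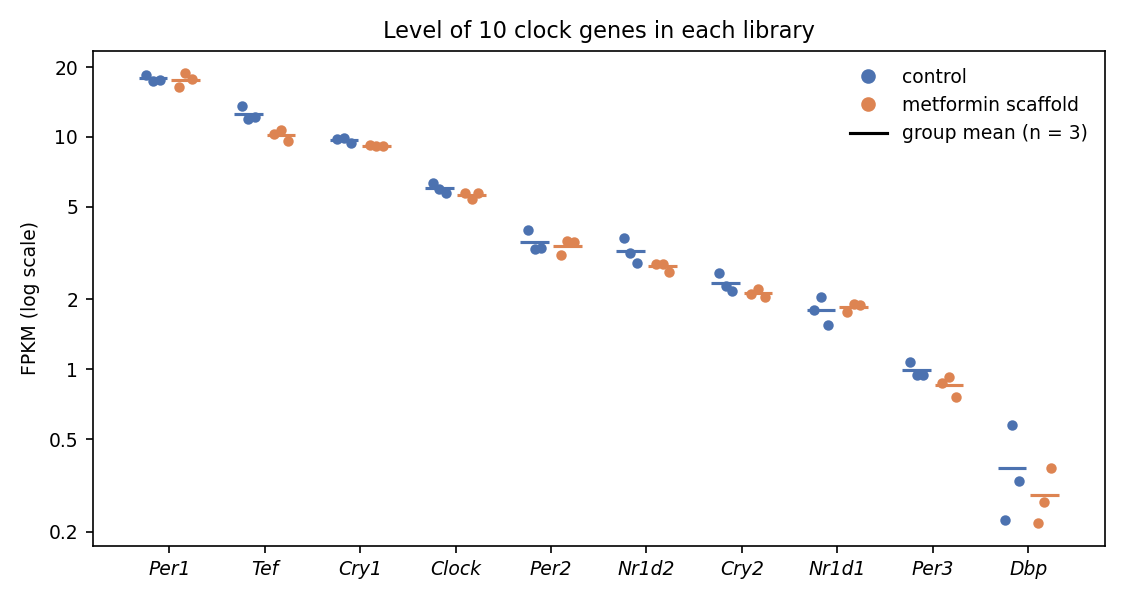
FPKM on a log axis (vertical) of the 10 genes (horizontal, in order of mean level), with 1 point per library and a line at each group mean (n = 3). Control and scaffold points lie close together for each gene against a range between genes from 0.33 FPKM for Dbp to 17.8 FPKM for Per1, and the widest scatter within a group is that of Dbp.

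Of 17375 genes tested with edgeR, 749 passed at an adjusted p under 0.05 (4.31%), 496 higher (2.85%) and 253 lower (1.46%). With library totals in place of TMM, the split was 429 higher and 380 lower. Of the 10 clock genes, 1 passed and was lower, and 9 did not pass. The median log2 fold change (scaffold over control) of the 10 was -0.08, against -0.0045 over all genes tested, and 8 of the 10 had a negative value, as did 51% of all genes tested. CPM (counts scaled to library size by TMM) of the groups did not overlap for 3 of the 10, against 24.0% of all genes tested, and all 3 lay lower in the scaffold group, as did 11.4% of all genes tested.

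**Figure D2:**
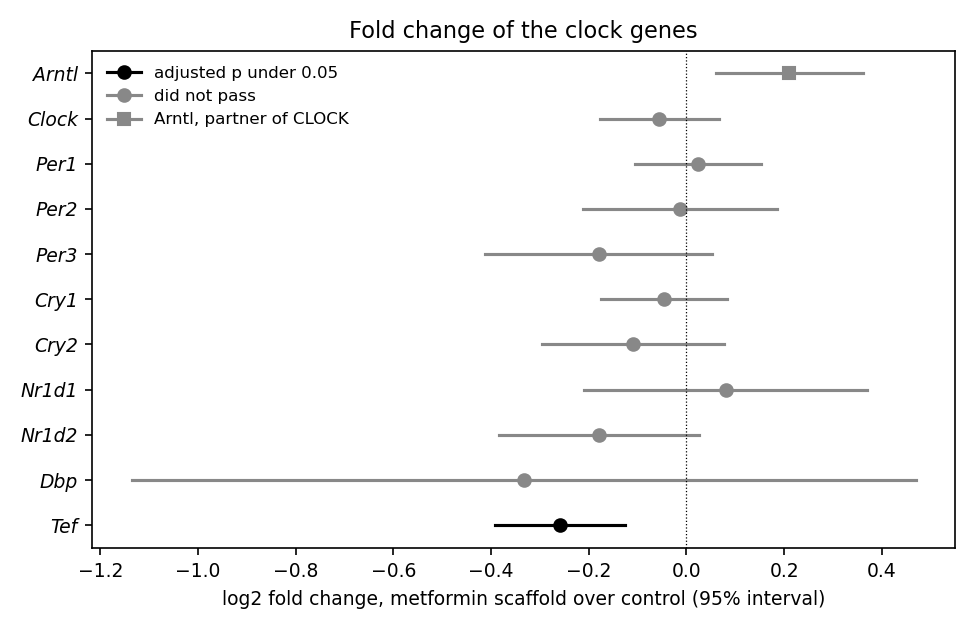
Log2 fold change of metformin scaffold over control (horizontal) for the 10 clock genes and Arntl (vertical), with 95% intervals from edgeR. Tef, in black, passed the adjusted threshold at -0.26, the grey genes did not, and the interval of Dbp, from -1.14 to 0.47, is the widest of the 11.

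Among the activators, Clock encodes a DNA-binding subunit and histone acetyltransferase that pairs with BMAL1 (ENSMUSG00000029238, GRCm38 chromosome 5, 76209868 to 76304792). It stood at 95.3, 90.5 and 87.5 CPM in the control libraries and at 89.2, 83.4 and 90.3 CPM in the scaffold libraries. The groups overlapped, and the log2 fold change was -0.06 ± 0.06 (SE; edgeR adjusted p = 0.669). Arntl, the partner gene, stood at 27.6, 26.8 and 29.0 CPM in control and at 31.5, 31.0 and 34.0 CPM with the scaffold. Every scaffold library of Arntl lay above every control library, but its log2 fold change of 0.21 ± 0.07 did not pass (edgeR adjusted p = 0.121). Arntl2, a paralogue of Arntl, stood at -0.01 ± 0.09 on the log2 fold change scale (edgeR adjusted p = 0.985), the highest of the 3 partner genes by mean FPKM. Npas2, which can stand in for Clock, had 0 to 16 counts per library, at most 4 read pairs, and was not tested. A change in its level was not detectable at this depth.

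The Per genes encode the repressors that build up after CLOCK and BMAL1 act. Per1 (ENSMUSG00000020893, chromosome 11, 69095217 to 69109960) stood at 114, 108 and 110 CPM in control and at 105, 119 and 114 CPM with the scaffold. The scaffold libraries of Per1 held both its lowest and its highest value, and its log2 fold change was 0.02 ± 0.06 (edgeR adjusted p = 0.885). Per2 (ENSMUSG00000055866, chromosome 1, 91415982 to 91459324) stood at 25.4, 21.4 and 21.6 CPM in control and at 20.6, 23.6 and 23.6 CPM with the scaffold. Control replicate 1 was the highest library of Per2, and the log2 fold change was -0.01 ± 0.09 (edgeR adjusted p = 0.960). The value of Per2 was 0.072 once control replicate 1 was left out and 0.050 once scaffold replicate 1 was, and that of Per1 was -0.018 without scaffold replicate 2, -0.013 with library totals and -0.016 in limma on log2(FPKM + 1), so neither gene had a settled direction. Per3, a period gene that in mice is less needed for the rhythm (ENSMUSG00000028957, chromosome 4, 151003652 to 151044665), stood at 11.4, 10.1 and 10.1 CPM in control and at 9.50, 9.98 and 8.40 CPM with the scaffold. All scaffold libraries of Per3 lay below all control libraries, and the log2 fold change of -0.18 ± 0.11 did not pass (edgeR adjusted p = 0.414).

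The Cry genes encode the stronger repressors of CLOCK and BMAL1. Cry1 (ENSMUSG00000020038, chromosome 10, 85131700 to 85185064) stood at 35.9, 36.6 and 35.0 CPM in control and at 34.8, 34.5 and 34.7 CPM with the scaffold. The groups of Cry1 did not overlap, but lay close to each other, and the log2 fold change was -0.05 ± 0.06 (edgeR adjusted p = 0.743). Cry2 (ENSMUSG00000068742, chromosome 2, 92403646 to 92434043) stood at 17.97, 16.1 and 15.3 CPM in control and at 15.1, 15.7 and 14.9 CPM with the scaffold. The groups of Cry2 overlapped (log2 fold change -0.11 ± 0.08, edgeR adjusted p = 0.557), and 4.7% of its exonic bases are shared with the antisense transcript D930015M05Rik.

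Of the REV-ERB genes, Nr1d1 (ENSMUSG00000020889, chromosome 11, 98767932 to 98775333) stood at 6.05, 6.96 and 5.31 CPM in control and at 6.14, 6.61 and 6.63 CPM with the scaffold. Its log2 fold change was 0.08 ± 0.13 (edgeR adjusted p = 0.812), and without control replicate 3, its lowest library, the value was -0.01. Nr1d1 shares 8.5% of its exonic bases with the thyroid hormone receptor gene Thra on the opposite strand, whose mean level was 20.3 FPKM. The labels do not say whether counting used strand, so reads of the shared stretch cannot be told apart. On the log2 fold change scale Thra stood at -0.14 ± 0.05 (edgeR adjusted p = 0.163). Nr1d2 (ENSMUSG00000021775, chromosome 14, 18204054 to 18239127) stood at 21.7, 18.9 and 17.1 CPM in control and at 17.4, 17.4 and 16.3 CPM with the scaffold. In CPM, control replicate 3 of Nr1d2 lay among the scaffold libraries, while in FPKM all scaffold libraries lay below all control libraries. The log2 fold change of -0.18 ± 0.09 did not pass (edgeR adjusted p = 0.345).

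The D-box factors are the output arm. Tef, thyrotroph embryonic factor (ENSMUSG00000022389, chromosome 15, 81802421 to 81826863), stood at 117, 105 and 106 CPM in control and at 91.6, 95.1 and 86.6 CPM with the scaffold. Every scaffold library of Tef lay below every control library. Tef shares 2.5% of its exonic bases with the antisense transcript Gm17597. The group means of Tef were 109 ± 6.55 and 91.1 ± 4.25 CPM (SD, n = 3 each), and in FPKM 12.6 ± 0.849 and 10.2 ± 0.549. The log2 fold change of Tef was -0.26 ± 0.06 (Benjamini-Hochberg over all genes tested, edgeR adjusted p = 0.0360), or 0.84-fold with a 95% interval of 0.762 to 0.916. Without each library in turn the log2 fold change of Tef stayed between -0.29 and -0.21 and lost its call each time (edgeR adjusted p from 0.0549 to 0.172). It also lost its call in limma on log2(FPKM + 1) (limma adjusted p = 0.0720) and kept it in DESeq2 (adjusted p = 0.00207).

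**Figure D3:**
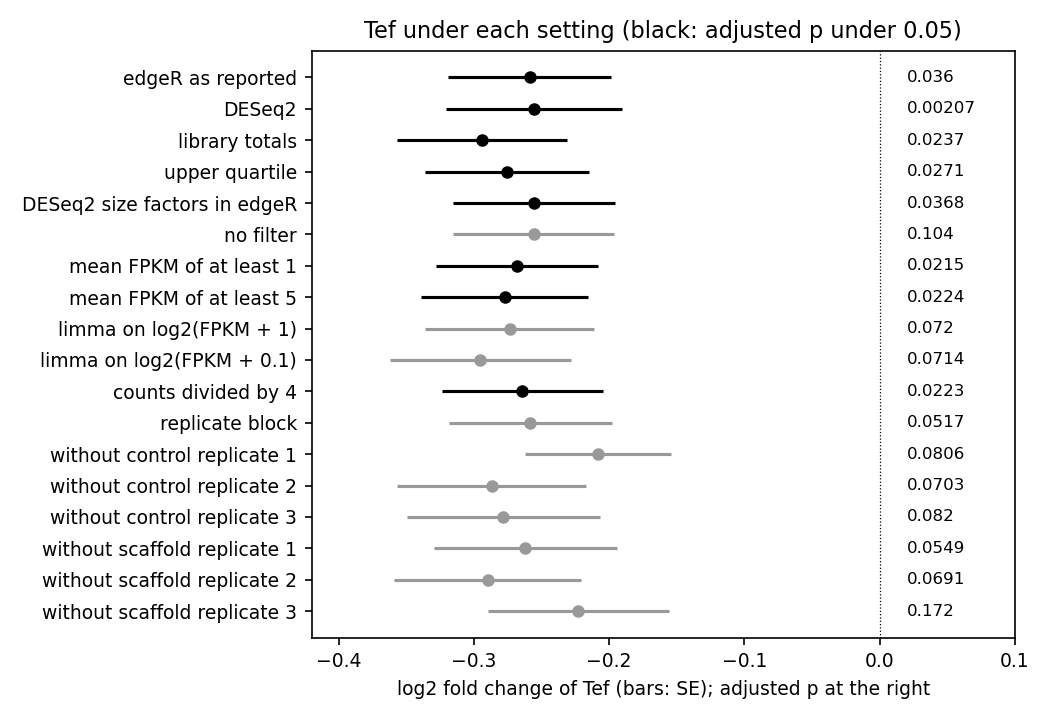
Log2 fold change of Tef with its standard error (horizontal) under each of 18 settings (vertical), with the adjusted p printed at the right and settings under 0.05 in black. The values stay between -0.30 and -0.21, and 10 of the 17 alternatives lie on the other side of the threshold, among them all 6 that leave out a library.

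Dbp, usually among the most strongly rhythmic transcripts of mouse tissues (ENSMUSG00000059824, chromosome 7, 45705088 to 45710203), stood at 0.75, 1.93 and 1.11 CPM in control and at 0.76, 0.94 and 1.32 CPM with the scaffold. The groups of Dbp overlapped, with control replicate 2 the highest and control replicate 1 the lowest of the 6 libraries. The log2 fold change was -0.33 ± 0.36 (edgeR adjusted p = 0.698), and without control replicate 2 it was 0.11. Dbp shares 18% of its exonic bases with Sphk2, a sphingosine kinase gene on the opposite strand at a mean of 3.89 FPKM, so part of its few counts may belong to either gene. Hlf, the third factor of this family, had 6 to 14 counts per library and was not tested. Nfil3, which represses through the same D-box, stood at 43.9, 40.2 and 37.5 CPM in control and at 36.4, 39.4 and 36.9 CPM with the scaffold. The groups of Nfil3 overlapped, and the log2 fold change was -0.11 ± 0.07 (edgeR adjusted p = 0.467).

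For the 8 genes other than Tef and Dbp, the 95% intervals of the fold ran from 0.752 at the lowest (Per3) to 1.29 at the highest (Nr1d1). For Dbp the interval reached from 0.455 to 1.38. The intervals of Per3, Cry2, Nr1d2 and Dbp all hold the 0.84-fold of Tef.

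Genes with opposite phases in a running clock were also set against each other within each library, as log2 ratios of FPKM. Dbp to Arntl was -3.90, -2.48 and -3.40 in control and -4.08, -3.76 and -3.39 with the scaffold. Nr1d1 to Arntl was -0.90, -0.65 and -1.16 in control and -1.07, -0.94 and -1.07 with the scaffold. Per2 to Arntl was 0.25, 0.04 and -0.06 in control and -0.25, -0.03 and -0.16 with the scaffold. Each of these ratios overlapped between the groups, and so did Dbp to Nfil3, at -6.47 to -4.96 in control and -6.19 to -5.41 with the scaffold.

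Control replicate 1 was the highest of the 6 libraries for 6 of the 10 genes (Clock, Per2, Per3, Cry2, Nr1d2 and Tef), and scaffold replicate 3 was the lowest for 4. Control replicate 1 also stood apart on the second principal component over all genes with a mean of at least 1 FPKM, at 11.9, against -3.36 and -7.20 for the other control libraries, and scaffold replicate 1 on the third, at -11.4 against 3.42 and 3.12 for the other scaffold libraries. Without control replicate 1, 7 of the 10 genes had a negative log2 fold change and their median was -0.04, against 8 and -0.08 with all libraries. Without scaffold replicate 1 they were 7 and -0.08. Single values moved both ways. Some shrank: without control replicate 1, Nr1d2 was at -0.086, Cry2 at -0.040 and Clock at -0.022. Clock was at -0.020 without scaffold replicate 2, Cry1 at -0.030 without control replicate 2 and Per3 at -0.11 without scaffold replicate 3. Others grew: without control replicate 3, Nr1d2 was at -0.26, Cry2 at -0.16 and Clock at -0.083, and without scaffold replicate 2 Per3 was at -0.23.

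**Figure D4:**
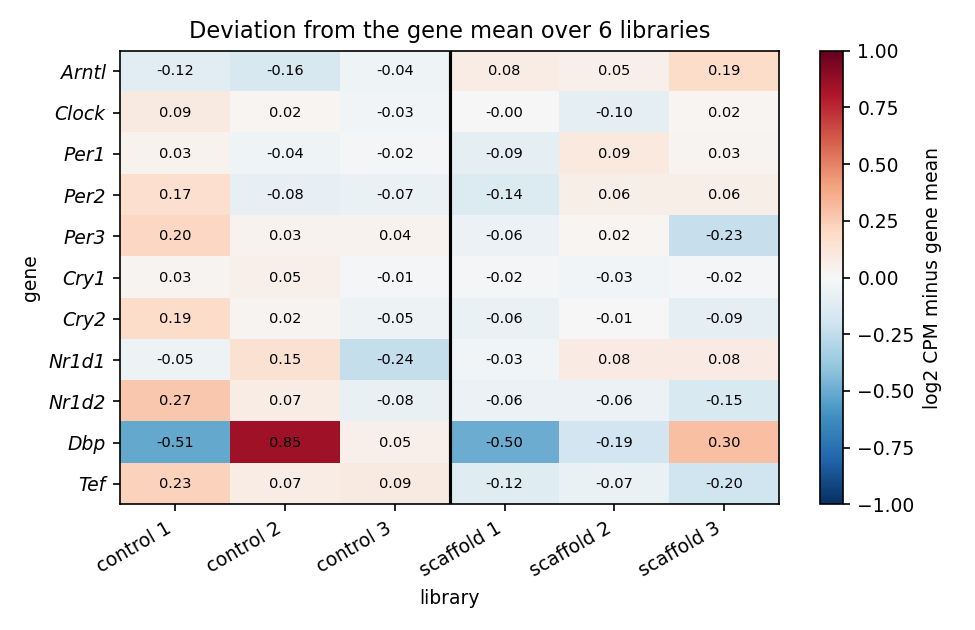
Deviation of log2 CPM from the mean of each gene over 6 libraries (colour and printed value), with genes in rows and libraries in columns, control to the left of the line. Control replicate 1 is the highest library for 6 of the 10 clock genes, Arntl is lower in all 3 control libraries, and Dbp spreads from -0.51 to 0.85 within the control group.

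By the smallest root mean square difference between centred log2 CPM profiles over the 6 libraries, the genes closest to Tef among 6924 with a mean of at least 5 FPKM were Ptprg, a receptor tyrosine phosphatase gene, at 0.013 and Luc7l2, a splicing factor gene, at 0.018. Their log2 fold changes were -0.25 ± 0.06 (edgeR adjusted p = 0.0483) and -0.26 ± 0.06 (edgeR adjusted p = 0.0342). Both calls were lost in limma on FPKM and without most single libraries. Both genes were picked for their likeness to Tef in these same libraries. A similar fold change and a similar loss of call follow from that choice and give no separate support.

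The wider clock machinery was counted over lists from textbook knowledge, which were chosen with earlier results of these data known. Of 20 genes of clock kinases, phosphatase, ubiquitin ligases and their partners, none passed with edgeR. Of the 20, 6 had an unadjusted p under 0.05 (18.1% of all genes tested did). With DESeq2 3 of the 20 passed, beside 1310 of 28792 genes tested with it. The median log2 fold change of these 20 was 0.03. Ppp1ca, a phosphatase that acts on PER proteins and the highest of the list by FPKM, did not pass at 0.16 ± 0.06 (edgeR adjusted p = 0.152). The nearest to the threshold, chosen after its value was seen, was Timeless, a replication fork gene related to a fly clock gene (0.32 ± 0.08, edgeR adjusted p = 0.0510). Of the ROR and D-box list, 3 of 5 genes were tested and none passed with edgeR, none at an unadjusted p under 0.05 and none with DESeq2. Rora, the activator that competes with REV-ERB, stood at 0.05 ± 0.08 (edgeR adjusted p = 0.800), and its sign turned without control replicate 2 (-0.02). Of 4 partner symbols, 2 genes were tested and none passed with edgeR or DESeq2, with 1 at an unadjusted p under 0.05.

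Of 18 clock output and clock-linked genes tested, 4 rose, 2 fell and 12 did not pass, where 2.85% of all genes tested rose and 1.46% fell. This list was chosen with earlier results of these data known, so its counts beside those shares are a description and not a test. The median log2 fold change of the 18 was 0.10. Bhlhe40, also called Dec1, whose protein represses CLOCK and BMAL1 at E-boxes and is itself induced by hypoxia, stood at 27.3, 28.6 and 26.0 CPM in control and at 48.9, 55.9 and 60.7 CPM with the scaffold. The groups of Bhlhe40 lay far apart, at a log2 fold change value of 1.02 ± 0.08 (edgeR adjusted p = 0.000141), and it passed under all 17 alternatives. Its paralogue Bhlhe41 (Dec2) stood at 63.7, 63.4 and 65.8 CPM in control and at 62.1, 59.0 and 51.2 CPM with the scaffold. The groups of Bhlhe41 did not overlap, and its log2 fold change of -0.16 ± 0.07 did not pass (edgeR adjusted p = 0.252). Ciart, another repressor of the loop, stood at 1.09, 1.00 and 0.85 CPM in control and at 1.46, 1.85 and 1.64 CPM with the scaffold. All scaffold libraries of Ciart were above all control libraries, and the log2 fold change of 0.75 ± 0.24 did not pass (edgeR adjusted p = 0.115).

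Nampt, the enzyme of NAD salvage whose gene has E-boxes, rose with a log2 fold change of 0.46 ± 0.05 (Benjamini-Hochberg over all genes, edgeR adjusted p = 0.00125). Cdkn1a, the cell cycle inhibitor p21 that REV-ERBα is known to repress and the highest of the list by FPKM, rose by 0.34 ± 0.05 (edgeR adjusted p = 0.00364), and Klf10, a zinc finger factor, by 0.39 ± 0.09 (edgeR adjusted p = 0.0391). Of the genes that fell, Tfrc, the transferrin receptor, stood at a log2 value of -0.72 ± 0.06 (edgeR adjusted p = 0.000247) and Cirbp, the cold-inducible RNA-binding protein that affects Clock transcripts, at -0.30 ± 0.06 (edgeR adjusted p = 0.0176). Nampt, Cdkn1a and Tfrc passed under all 17 alternatives, while Klf10 lost its call under 11, among them all 6 that leave out a library, and Cirbp under 5.

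**Figure D5:**
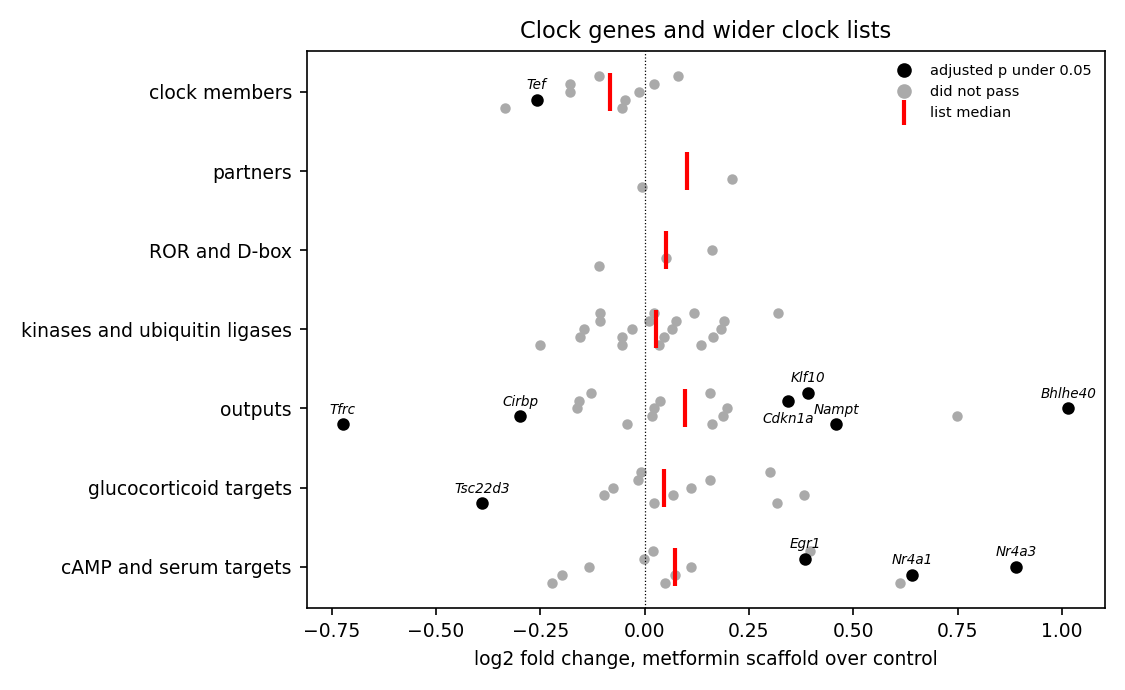
Log2 fold change of metformin scaffold over control (horizontal) of each tested gene of the 10 clock genes and 6 wider lists (vertical), with black and named points for edgeR adjusted p under 0.05, grey points for the rest and a red mark at each list median. Bhlhe40 at 1.02 and Tfrc at -0.72 are the highest and the lowest of the points that passed, and the medians lie between -0.08 for the clock genes and 0.10. Genes on 2 lists appear in both.

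Per1 is induced by glucocorticoids and by cAMP, so genes of both routes were listed, again with earlier results of these data known. Beside targets, the lists hold parts of the routes (Nr3c1 and Hsd11b1, and Creb1, Crtc1 and Crtc2), and the glucocorticoid list holds Per1 itself. Of the 12 genes of the glucocorticoid list, 1 fell and 11 did not pass (1.46% of all genes tested fell), and their median log2 fold change was 0.05. Tsc22d3 (GILZ), a glucocorticoid-induced gene that is rhythmic in many mouse tissues, stood at 846, 896 and 915 CPM in control and at 720, 637 and 671 CPM with the scaffold. The groups of Tsc22d3 did not overlap, and its log2 fold change of -0.39 ± 0.06 passed (edgeR adjusted p = 0.00483), as it did under all 17 alternatives. Of the 13 genes of the cAMP and serum list, 3 rose and 10 did not pass (2.85% of all genes tested rose), and their median was 0.07. These were Egr1 (0.39 ± 0.07, edgeR adjusted p = 0.00775) and the nuclear receptor genes Nr4a1 (0.64 ± 0.13, edgeR adjusted p = 0.0164) and Nr4a3 (0.89 ± 0.21, edgeR adjusted p = 0.0408). Egr1 passed under all 17 alternatives, while Nr4a1 lost its call under 7 and Nr4a3 under 9.

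In bulk RNA, fewer cells of a type and less RNA per cell cannot be told apart. The summed level of the 8 osteoblast markers was 5837 to 6657 FPKM in control and 6966 to 7085 FPKM with the scaffold. Of these, Sp7, Alpl, Ibsp and Bglap rose (1.18-fold, 1.49-fold, 1.72-fold and 3.79-fold), and Bglap has near-identical copies that the counting may have split. Col1a1, Col1a2, Spp1 and Runx2 did not pass, and Runx2 was 0.89-fold of control. Most of the difference in the osteoblast sum was Ibsp (means of 1266 FPKM in control and 2116 FPKM with the scaffold). Col1a1 stood at 2173 and 2163 FPKM, Col1a2 at 1532 and 1541 FPKM and Spp1 at 1066 and 1106 FPKM. The summed level of the 5 osteocyte markers was 8.19 to 9.58 FPKM in control and 17.7 to 20.8 FPKM with the scaffold. Most of it was Mepe (means of 7.28 and 14.2 FPKM) and Dmp1 (0.999 and 4.23 FPKM). Phex stood at 0.450 and 0.851 FPKM. Sost and Fgf23, at 0 to 7 and 0 to 4 counts per library, were not tested. The neuron markers Tubb3 and Syt1 summed to 1.53 to 1.87 FPKM in control and 2.71 to 3.27 FPKM with the scaffold, nearly all from Tubb3. The 3 kidney tubule markers summed to 12.1 to 14.3 and 2.19 to 5.57 FPKM, mostly from Kap (means of 12.1 and 3.19 FPKM). The 3 cartilage markers did not move together. Col2a1 rose from a mean of 31.8 to 56.4 FPKM, Sox9 stood at 27.1 and 24.1 FPKM and did not pass, and Acan was listed at 0 in all but 1 library. The part of these markers in the differences of Tef, Bhlhe40 and Tsc22d3 was not tested. The 4 endothelial markers summed to 0.107 to 0.167 FPKM in control and 0.109 to 0.157 FPKM with the scaffold, and the 3 leukocyte markers to at most 0.342 FPKM in any library.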

How the data were processed

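RNA of 3 control and 3 metformin scaffold libraries, grouped by their titles, was compared. Per the submitters' processing notes, the tools were bcl2fastq 2.20, fastp, HISAT2, StringTie, DESeq2 and edgeR, with no roles given. No source used here names the genome build. The deposited table holds, per the file headers, an FPKM value and a count per gene and library. FPKM was normalised by the authors for length and depth. The deposited counts are estimated counts: 4 is the most frequent value above 0 in each library and 31.8% to 33.6% of values from 1 to 12 are 4, 8 or 12, so 1 read pair was taken as 4 counts. Coordinates of all 10 genes equal those of GENCODE M21 (GRCm38).

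Estimated counts, already whole, were tested with edgeR 4.0.16 (R 4.3.3): filterByExpr (minimum count 10), TMM, the two-sided quasi-likelihood test, and Benjamini-Hochberg adjustment over 17375 genes at 0.05. SE is the size of the log2 fold change divided by the square root of F. Intervals are at 95% and not adjusted for multiple tests. Tests were checked on simulated data in which every planted change was larger than that of Tef, so the check does not cover a change of that size. Alternatives used DESeq2 1.42.0, limma 3.58.1 on log2(FPKM + 1) and log2(FPKM + 0.1) at a mean of at least 0.1 FPKM, other scalings and filters, counts divided by 4, a replicate block and each library left out.

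The members and lists were chosen with earlier results of these data known. Named are the 10 members, a fixed set of loop genes (Arntl, Npas2, Nfil3, Hlf, Rora, Bhlhe40, Bhlhe41, Ciart, Tsc22d3 and Thra), in each list the genes that passed (at most 6) and the highest by FPKM, and the 2 genes with profiles closest to each member that passed. Protein sequences were not used here.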

Additional observations from a re-analysis of the deposited data

How the results depend on the processing

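Of the 10 clock genes, 1 passed (Tef, log2 fold change -0.26), and 7 of the 17 alternatives kept that call. None passed without a filter (0; Tef -0.26, edgeR adjusted p = 0.104), in limma on log2(FPKM + 1) (0; Tef -0.27, limma adjusted p = 0.0720) and on log2(FPKM + 0.1) (0; Tef -0.30, limma adjusted p = 0.0714), or with a replicate block (0; Tef -0.26, edgeR adjusted p = 0.0517). Leaving out 1 library gave 0 to 0 members that passed and a Tef value from -0.29 to -0.21. In 15 to 17 alternatives each, Per3, Cry1, Cry2, Clock and Nr1d2 kept a negative value and did not pass. Signs turned for Per1 with library totals (-0.013), in limma at pseudocounts of 1 and 0.1 (-0.016 and -0.017) and when libraries were left out (-0.018 to 0.074), and on leaving out libraries for Per2 (-0.057 to 0.072), Nr1d1 (-0.011 to 0.19), Dbp (-0.60 to 0.11), Arntl2 (-0.092 to 0.062) and Rora (-0.018 to 0.13). Over all genes 749 of 17375 tested passed, against 1310 of 28792 with DESeq2 and 432 of 28802 without a filter. In limma at pseudocounts of 1 and 0.1, 452 and 459 of 17210 passed, and with counts divided by 4, 883 of 14211. The replicate block gave 651 of 17375, and leaving out 1 library gave 323 to 968. Kinases and ligases went from 0 to 3 with DESeq2, 1 at a mean of at least 1 FPKM, 1 with counts divided by 4 and 0 to 2 on leaving out a library. The cAMP and serum count went from 3 to 1 without a filter, 1 and 1 in limma, and 1 to 3 on leaving out a library. The causes were not tested. Replicate numbers share only a number: deviations of same-numbered libraries correlated at -0.061, -0.014 and 0.0035, and no control library correlated best with its own number, so no pairing was taken. Depth limits Npas2 and Hlf.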
